A study of Mus musculus with 6 samples.

Results

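The replication-dependent histone genes of the mouse were described in RNA-seq libraries of neutrophils sorted from the uterus. They were chosen by name: protein-coding genes whose GENCODE M21 symbol begins with Hist1h, Hist2h, Hist3h or Hist4h. The annotation holds 67 such genes, and 64 of them were among the 43432 genes of the deposited tables; Hist1h2bh, Hist1h2bm and Hist2h2bb were not analysed here. The 64 genes comprised 6 linker histone H1 genes, 18 H2A genes, 15 H2B genes, 12 H3 genes and 13 H4 genes. No measured value entered this choice of symbols. The family was picked, however, after lower counts of Hist1h4i in hyperoxia had been seen in these same libraries, so the differences between groups are given as a description and support nothing further.

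Replication-dependent histone genes encode the core histones H2A, H2B, H3 and H4, around which DNA is wound, and the linker histone H1. Their transcripts rise in S phase, when new chromatin needs histones, and most end in a short RNA stem-loop bound by the protein SLBP in place of a poly(A) tail. Some of the genes also make polyadenylated transcripts, which are known from differentiated cells that have stopped dividing. Mature neutrophils are such cells.

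All 6 libraries came from sorted CD45+ cells with CD11b and high Ly6G, taken from the whole uterus of C57BL/6 mice that carried Pgrcre/+ together with a conditional allele. In these mice Cre is expressed from the progesterone receptor gene, so recombination takes place in cells that express that receptor and their descendants; both groups carried the alleles, and no mouse without them was analysed here. The 3 normoxia libraries were from mice kept in ambient air, and the 3 hyperoxia libraries from mice kept in a chamber at 60% oxygen for 10 days, from postnatal day 18 to 28. All mice were 4 weeks old at collection. The labels do not say whether the libraries of a group came from separate animals, and p-values therefore reflect only how much these libraries vary, part of which may be technical.

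The libraries held 38683293 to 61715617 counts, and 3 counts were worth 0.0486 to 0.0776 CPM, a count divided by the library's total and scaled up by a constant, in a single library. For the CPM of genes and of gene lists, other than the summed histone counts, library totals were also scaled by TMM, which corrects for composition. S100a8, a calcium-binding protein abundant in neutrophils, was high in every library, at 13230 to 44920 CPM. Ly6g, whose protein was used in the sort, varied more, from 38.9 CPM in hyperoxia replicate 3 to 350.9 CPM in hyperoxia replicate 2. Mpo and Elane, granule enzymes made by neutrophil precursors, reached at most 0.31 and 0.33 CPM. Other genes of the same precursor list were higher in every library, with Ngp at 33.2 to 5542 CPM, Lcn2 at 474.9 to 3963 CPM and Ltf at 141.5 to 2550 CPM. Hyperoxia replicate 2 stood apart, with 13180 CPM summed over 11 neutrophil precursor genes against 677.9 to 1938 CPM in the other 5 libraries.

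The stem-loop is the feature that sets these transcripts apart, and it was searched for in the GENCODE M21 transcripts on GRCm38. The search took 16 bases made of GG, 3 free bases, TTTT, 1 free base, AG, 2 free bases and CC, read on the strand of the transcript after the last coding base, with both 6-base arms able to pair around a 4-base loop. It was found in 42 of the 64 genes, 21 to 58 bases after the coding sequence (median 31.5), and in 8 of 21834 other protein-coding genes (0.0366%), among them the histone variant gene H2afx. In many of the other 22 histone genes, such as Hist1h2ai, Hist1h3i and Hist1h4k, the annotated transcript ends with the coding sequence. No stem-loop could be found in these, whether or not the gene has one. The 42 genes carried only 6 distinct stem-loops. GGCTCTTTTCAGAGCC was in 24 genes, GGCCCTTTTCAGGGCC in 7 and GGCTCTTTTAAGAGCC in 6, while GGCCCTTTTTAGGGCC was in 2, Hist1h4i and Hist2h4. The stem-loops of genes that the results turn on are printed with 5 bases on either side, the paired arms in capitals.
Hist1h1c: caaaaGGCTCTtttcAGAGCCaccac
Hist3h2a: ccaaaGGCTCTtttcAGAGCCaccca
Hist1h2bb: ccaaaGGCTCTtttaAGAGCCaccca
Hist1h2be: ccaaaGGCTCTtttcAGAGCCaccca
Hist1h3e: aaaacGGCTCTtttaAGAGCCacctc
Hist1h4c: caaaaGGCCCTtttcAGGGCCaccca
Hist1h4i: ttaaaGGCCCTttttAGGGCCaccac
Hist2h4: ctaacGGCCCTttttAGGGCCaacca
On GRCm38 these stretches lie at chr13:23739507-23739532 (plus strand) for Hist1h1c, chr11:58955167-58955192 (plus) for Hist3h2a, chr13:23747198-23747223 (plus) for Hist1h2bb and chr13:23585526-23585551 (minus) for Hist1h2be. The others lie at chr13:23561898-23561923 (minus) for Hist1h3e, chr13:23698084-23698109 (minus) for Hist1h4c, chr13:22040961-22040986 (minus) for Hist1h4i and chr3:96262934-96262959 (minus) for Hist2h4.

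No stem-loop was found in the annotated transcript of Hist1h2bc, an H2B gene with the second highest count of the family. Its first exon, chr13:23684199-23684621, ends 9 bases after the stop codon and is joined to a second exon of 733 bases at chr13:23692176-23692908. Most counts of the family were on genes whose annotated transcripts run well past a histone-type end. The 21 genes with a stem-loop and a transcript reaching over 100 bases beyond it held 65.4% of the family's counts. The 22 genes with no stem-loop in their annotated transcripts held 32.5%, with 21374 of their 21547 counts on Hist1h2bc. The 21 genes whose transcripts all end within 100 bases of a stem-loop held 2.07%. The median gene had 153 counts over the 6 libraries in the first of these sets and 11 counts in the last. These sets say which transcripts are annotated, not which ends were sequenced, since counts per gene do not show transcript ends.

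The genes lie in clusters: 52 of the 64 are on chromosome 13, 22 of them between 21715763 and 22043676 and 30 between 23531050 and 23934851, with 9 on chromosome 3, 2 on chromosome 11 and 1 on chromosome 6. Of the H2A and H2B genes, 24 form 12 divergent pairs whose starts are 175 to 305 bases apart. Hist1h2ac and Hist1h2bc form such a pair, and its shared upstream stretch is shown because the counts of its genes were furthest apart: 141 for Hist1h2ac and 21374 for Hist1h2bc, summed over the 6 libraries. The stretch (RefSeq, GRCm38.p6, chr13:23683960-23684198, minus strand, 239 bases) has matches to the octamer ATTTGCAT, to CCAAT and to TATAAA on either strand in capitals.
Hist1h2ac and Hist1h2bc: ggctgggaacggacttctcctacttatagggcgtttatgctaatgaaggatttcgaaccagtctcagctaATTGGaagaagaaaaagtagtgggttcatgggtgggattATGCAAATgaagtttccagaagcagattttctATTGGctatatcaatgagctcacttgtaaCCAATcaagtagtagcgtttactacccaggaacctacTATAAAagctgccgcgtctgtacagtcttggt
The octamer was matched on the reverse strand at position 110 of the printed stretch, CCAAT at position 171 and on the reverse strand at 71 and 142, and TATAAA at 208. Both genes can be counted apart from their relatives, with 85.9% of the 50-base stretches of Hist1h2ac transcripts and 69.4% of those of Hist1h2bc found in no other gene.

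RefSeq promoters of 300 bases were matched for 59 of the 64 genes, giving 60 promoters, and their motifs differed between histone classes. No promoter was matched for Hist1h2bc, Hist2h2be, Hist1h3a, Hist1h3f and Hist2h4. The octamer in the stretch printed above is therefore counted for Hist1h2ac and not for Hist1h2bc. The octamer was in 7 of 18 H2A promoters (38.9%) and 5 of 14 H2B promoters (35.7%), in none of the H1, H3 and H4 promoters, and in 1.74% of all 32851 mouse promoters in the same table. Matches were taken on either strand, and the promoters of divergent H2A and H2B partners overlap, so the same octamer can count for both classes. Both partners had a match in the pairs Hist1h2aa and Hist1h2ba, Hist1h2ae and Hist1h2bg, and Hist1h2ah and Hist1h2bk. The H2A and H2B shares are therefore not independent. CCAAT was in every H1, H2A, H2B and H3 promoter matched (6, 18, 14 and 10), in 3 of 12 H4 promoters (25%) and in 37.4% of all promoters. TATAAA was in 35 of the 60 histone promoters (58.3%) and in 13.6% of all promoters. A match is a string of letters and shows no binding.

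Copies of a class share most of their coding sequence, which bears on what a count can mean. The 13 H4 genes all had coding sequences of 312 bases that were 85.3% to 100% identical (median 93.9%), with Hist1h4m and Hist1h4n the same throughout. The 11 of 12 H3 genes with 411 coding bases were 93.7% to 99.8% identical, and Hist1h2ao and Hist1h2ap, and Hist2h2aa1 and Hist2h2aa2, were identical pairs among the H2A genes. Hist2h2aa1, Hist2h2aa2, Hist2h3b and Hist2h3c1 had no 50-base stretch of their own, and each had 0 counts in all 6 libraries. All of them also overlap other annotated genes, and stretches shared with a gene on either strand did not count as own. On the same strand, Gm20634 covers 100% of the exon bases of Hist2h3c1 and 90.3% of those of Hist2h2aa1. On the opposite strand, other genes cover 100% of those of Hist2h2aa1, Hist2h2aa2 and Hist2h3b. The part of these overlaps in the 0 counts was not tested. The 29 genes with some but less than 50% of their own sequence held 702 counts in all, with a median of 5 and 7 genes at 0. The 31 genes with 50% or more held 65571, with a median of 61 and none at 0. Counts of 0 over the 6 libraries together allow a level of up to 0.0108 CPM for reads that could be placed. They say nothing of reads that were dropped for matching several copies or overlapping genes. Hist1h3e, with 26.6% of its stretches its own, and Hist1h4m, with 10.2%, are therefore less certain than Hist1h4i (71.1%), Hist2h4 (99.0%) and Hist1h1c (91.5%).

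**Figure D1:**
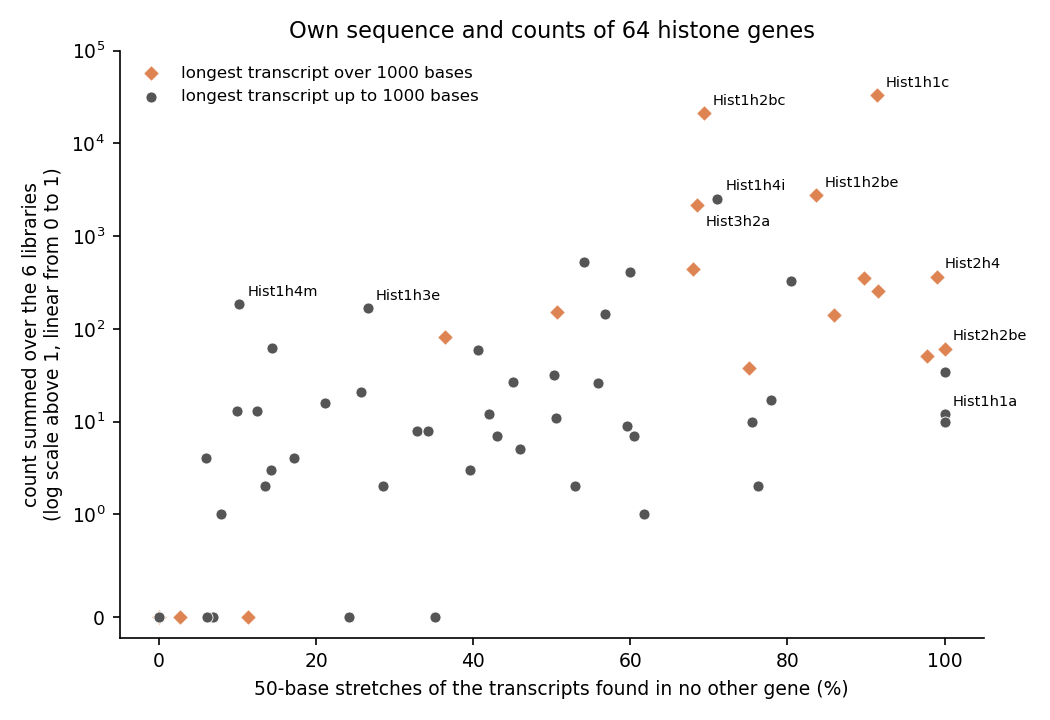
Each point is 1 of the 64 histone genes, with the percent of the 50-base stretches of its transcripts that occur in no other gene on the horizontal axis and its count summed over the 6 libraries on the vertical axis (log scale above 1). Diamonds are genes whose longest annotated transcript exceeds 1000 bases; the 4 genes with no stretch of their own sit together at 0 counts, and Hist1h1c and Hist1h2bc are the highest.

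Own sequence alone did not mean high counts. Hist1h1a, Hist1h1b and Hist1h1t, linker histone genes that share no 50-base stretch with another gene, had 12, 34 and 10 counts over all libraries. Among the 31 genes with 50% or more of their own sequence, the 13 with a transcript of over 1000 bases had a median of 357 counts and the 18 others a median of 14.5. Of all 64 genes, 11 had no count, 29 had at most 10 counts in any library and 24 had more. By class, more than 10 counts in a library were reached by 3 of 6 H1, 3 of 18 H2A, 6 of 15 H2B, 4 of 12 H3 and 8 of 13 H4 genes.

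Most counts of the family came from Hist1h1c and Hist1h2bc. Hist1h1c, a linker histone gene at chr13:23738808-23740367 (ENSMUSG00000036181), took 41.2% to 54.5% of the family's counts in a library. Hist1h2bc (ENSMUSG00000018102) took 28.0% to 40.1%, and together they took 79.5% to 88.0%. Per kilobase of annotated exon, the level over the 6 libraries was 76.4 CPM for Hist1h1c, 66.3 for Hist1h2bc and 12.9 for Hist1h4i, followed by 4.15 for Hist1h4h, 3.61 for Hist3h2a, 3.08 for Hist1h2bb and 2.35 for Hist1h2be.

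Of the linker histone genes, which encode the protein that closes the nucleosome, 2 of 6 had enough counts to be tested. Values per library are given as CPM after TMM scaling, which corrects library sizes for composition, in replicates 1, 2 and 3 of each group. Hist1h1c stood at 146.5, 159.3 and 118.7 CPM in normoxia and 86.5, 129.6 and 74.6 CPM in hyperoxia. Hyperoxia replicate 2 was above the lowest normoxia library, so the groups overlapped, and the log2 difference of hyperoxia minus normoxia was -0.55 ± 0.26 (SE) (edgeR's quasi-likelihood test, adjusted p = 0.413 by Benjamini-Hochberg over 12908 genes). Hist1h1e stood at 1.90, 1.95 and 1.82 CPM in normoxia and 1.19, 1.43 and 1.28 CPM in hyperoxia. Its hyperoxia libraries were all below its normoxia libraries, with a log2 difference of -0.54 ± 0.30 (edgeR adjusted p = 0.494); its exons share 496 bases with those of Hist1h2be on the same strand, so their reads may be mixed. Hist1h1d was not tested, with 8, 15 and 9 counts in normoxia and 9, 6 and 4 in hyperoxia.

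Of the H2A genes, Hist3h2a, a gene outside the chromosome 13 clusters, had the highest CPM, with 9.29, 6.79 and 8.19 CPM in normoxia and 8.63, 8.39 and 5.22 CPM in hyperoxia. The groups overlapped, and the log2 difference was -0.13 ± 0.26 (edgeR adjusted p = 0.884). Hist3h2a shares 33% of its exon bases with Trim17 on the same strand, so part of its count may be of that gene. Hist1h2ac, the low partner of Hist1h2bc, stood at 0.749, 0.821 and 0.694 CPM in normoxia and 0.430, 0.141 and 0.400 CPM in hyperoxia, without overlap (log2 difference -1.23 ± 0.53, edgeR adjusted p = 0.379). Hist1h2ae had a difference of the opposite sign, at 0.351, 0.333 and 0.617 CPM in normoxia and 0.557, 0.642 and 0.568 CPM in hyperoxia. Its groups overlapped, with a log2 difference of 0.45 ± 0.47 (edgeR adjusted p = 0.732), which ran from 0.28 without normoxia replicate 2 to 0.84 without normoxia replicate 3.

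The H2B genes tested were 4 of 15, and all 4 had hyperoxia libraries below every normoxia library, as did 10.3% of all genes tested; Hist1h2bj, 1 of the 4, reached the count filter only in normoxia. Hist1h2bc stood at 82.4, 83.2 and 90.3 CPM in normoxia and 52.0, 79.6 and 72.5 CPM in hyperoxia; its log2 difference of -0.33 ± 0.22 was the smallest of the 4 (edgeR adjusted p = 0.564), and was -0.13 without hyperoxia replicate 1. Hist1h2be stood at 13.6, 11.8 and 13.9 CPM in normoxia and 9.16, 4.74 and 9.49 CPM in hyperoxia, a log2 difference of -0.75 ± 0.29 (edgeR adjusted p = 0.329) that was -0.47 without hyperoxia replicate 2. Hist1h2bb stood at 1.69, 2.26 and 2.85 CPM in normoxia and 0.759, 0.251 and 1.58 CPM in hyperoxia, a log2 difference of -1.40 ± 0.60 (edgeR adjusted p = 0.377) that ran from -0.93 without hyperoxia replicate 2 to -2.19 without hyperoxia replicate 3. Hyperoxia replicate 2 was lowest for Hist1h2be and Hist1h2bb but highest of the hyperoxia libraries for Hist1h2bc. None of the 4 passed the adjusted threshold of 0.05 in edgeR.

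Of the H3 genes, Hist1h3e (chr13:23561534-23562369, ENSMUSG00000069273) differed most. It stood at 1.19, 1.24 and 0.617 CPM in normoxia, a mean of 1.02 ± 0.348 (SD, n = 3), and at 0.329, 0.141 and 0.274 CPM in hyperoxia, a mean of 0.248 ± 0.0966 (SD, n = 3). The groups did not overlap, and the log2 difference of -2.05 ± 0.53 had an adjusted p of 0.179 in edgeR and 0.0253 in DESeq2. Hist1h3f stood at 0.866, 0.776 and 0.848 CPM in normoxia and 0.506, 0.0939 and 0.463 CPM in hyperoxia, without overlap (log2 difference -1.25 ± 0.62, edgeR adjusted p = 0.434), and its log2 difference was -0.75 without hyperoxia replicate 2. Hist2h3c2, on chromosome 3, did not share this direction. Its values were 0.187, 0.355 and 0.283 CPM in normoxia and 0.481, 0.235 and 0.253 CPM in hyperoxia, with overlap (log2 difference 0.21 ± 0.56, edgeR adjusted p = 0.908).

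The H4 genes had the most members above the count filter, 7 of 13. Hist1h4i (chr13:22040636-22041362, ENSMUSG00000060639) had the highest CPM, with 11.3, 14.8 and 12.5 CPM in normoxia and 5.34, 5.98 and 6.40 CPM in hyperoxia. The lowest normoxia library was well above the highest hyperoxia library, and the log2 difference of -1.12 ± 0.21 had the smallest standard error of the 19 genes tested. Its adjusted p was 0.111 in edgeR and 0.00117 in DESeq2; with the low-count filter left out, edgeR gave 0.0425. Hist2h4 (chr3:96261682-96263311, ENSMUSG00000091405), the other gene with the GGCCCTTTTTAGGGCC stem-loop, stood at 2.41, 2.15 and 2.03 CPM in normoxia and 1.19, 0.313 and 0.421 CPM in hyperoxia. Hyperoxia replicate 1 was the highest of its group and still below all normoxia libraries, and the log2 difference of -1.79 ± 0.52 had an adjusted p of 0.224 in edgeR and 0.0333 in DESeq2. Without hyperoxia replicate 1 the edgeR value for Hist2h4 was 0.0417, at a log2 difference of -2.55.

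Hist1h4h, an H4 gene with 54.2% of its sequence its own, stood at 2.22, 3.44 and 2.57 CPM in normoxia and 0.734, 0.752 and 1.98 CPM in hyperoxia. Hyperoxia replicate 3 came close to the lowest normoxia library, and the log2 difference was -1.25 ± 0.46 (edgeR adjusted p = 0.314), or -1.88 without that library. Hist1h4c and Hist1h4m were also without overlap, with log2 differences of -0.81 ± 0.33 and -1.59 ± 0.58. Hist1h4d had the highest positive difference of the 19 genes, 0.77 ± 0.47, with 2.36 CPM in hyperoxia replicate 2 against 0.643 to 1.28 CPM in the other 5 libraries. Hist4h4, on chromosome 6, overlapped between groups, with a log2 difference of -0.43 ± 0.62.

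**Figure D2:**
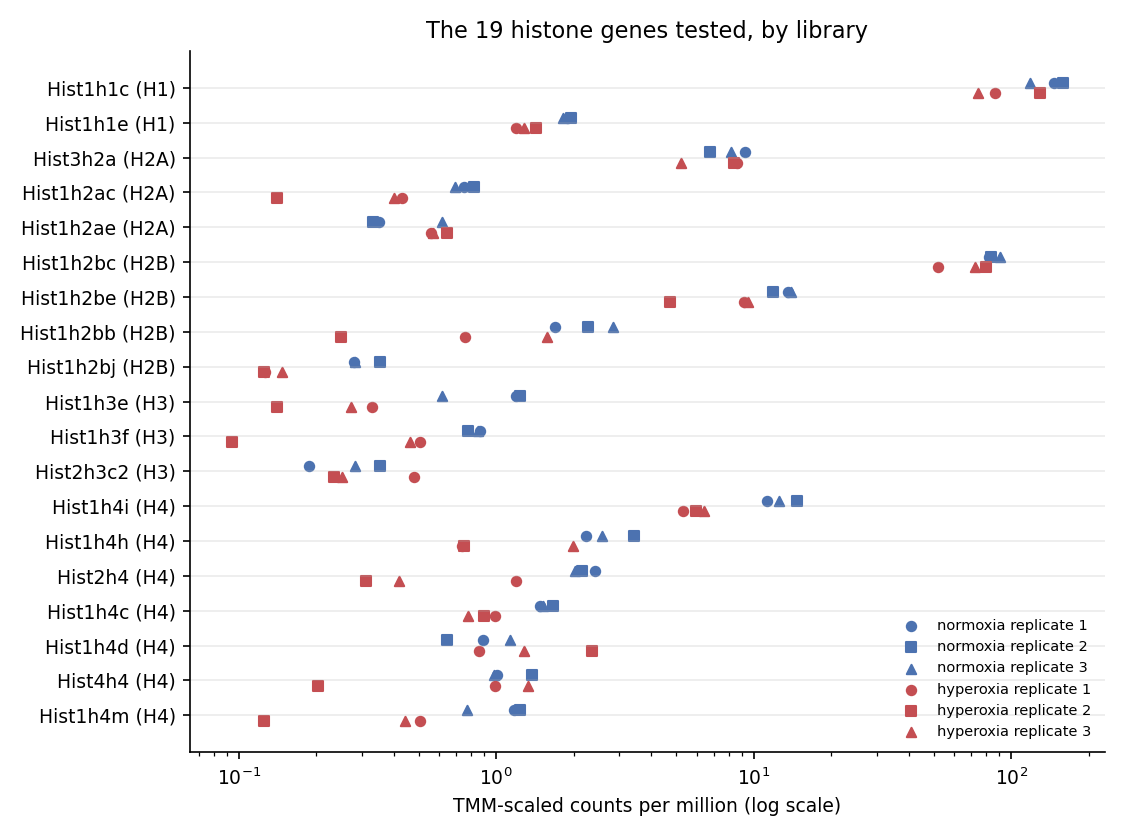
TMM-scaled CPM (horizontal log scale) of the 19 histone genes tested, with normoxia libraries in blue and hyperoxia libraries in red, and replicates 1, 2 and 3 as circle, square and triangle. Hist1h1c and Hist1h2bc lie far above the rest, and the red square of hyperoxia replicate 2 is the lowest of the 6 libraries for 9 genes.

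Across the 19 genes tested, 16 had log2 differences below 0, with a median of -0.81 and a range of -2.05 to 0.77; of all 12908 genes tested, 46.3% were below 0, with a median of 0.04. With no filter on low counts the histone median was -0.46 over 53 genes. Hyperoxia was below normoxia without overlap for 13 of the 19, where 10.3% of all genes tested were, and above it for 0 of 19, where 9.56% of all genes were. At the adjusted threshold of 0.05, edgeR called 0 of the 19 lower and 0 higher (0% and 0% of all genes), and limma-voom likewise called none (0% and 0%). At an unadjusted edgeR p under 0.05, 9 of the 19 were lower and 0 higher, against 3.91% and 9.10% of all genes. DESeq2 called 3 of the 19 lower, Hist1h4i, Hist1h3e and Hist2h4, and 0 higher, against 0.403% and 3.57% of all genes. It gave no adjusted p for some genes, Hist1h2bj among them, and these were counted as not called. Because the family was picked with results of this contrast known, nothing is read from these shares.

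The count filter bears on these counts. It kept a gene with enough counts in 3 libraries, a cutoff of 0.225 CPM, so a gene high enough in normoxia alone could pass. Of the 19 genes, 12 reached the cutoff in every library, and 10 of these were below 0, with a median log2 difference of -0.65 and 8 without overlap. Hist1h2ac, Hist1h3e, Hist1h3f, Hist1h4m and Hist4h4 reached it in all 3 normoxia libraries and 2 of the hyperoxia libraries, and Hist2h3c2 in 2 normoxia and all 3 hyperoxia libraries. Hist1h2bj reached it in 3 normoxia libraries and 0 hyperoxia libraries, so it was tested only through the group where it was high and had to differ. The other 45 of the 64 genes were too low to be tested.

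**Figure D3:**
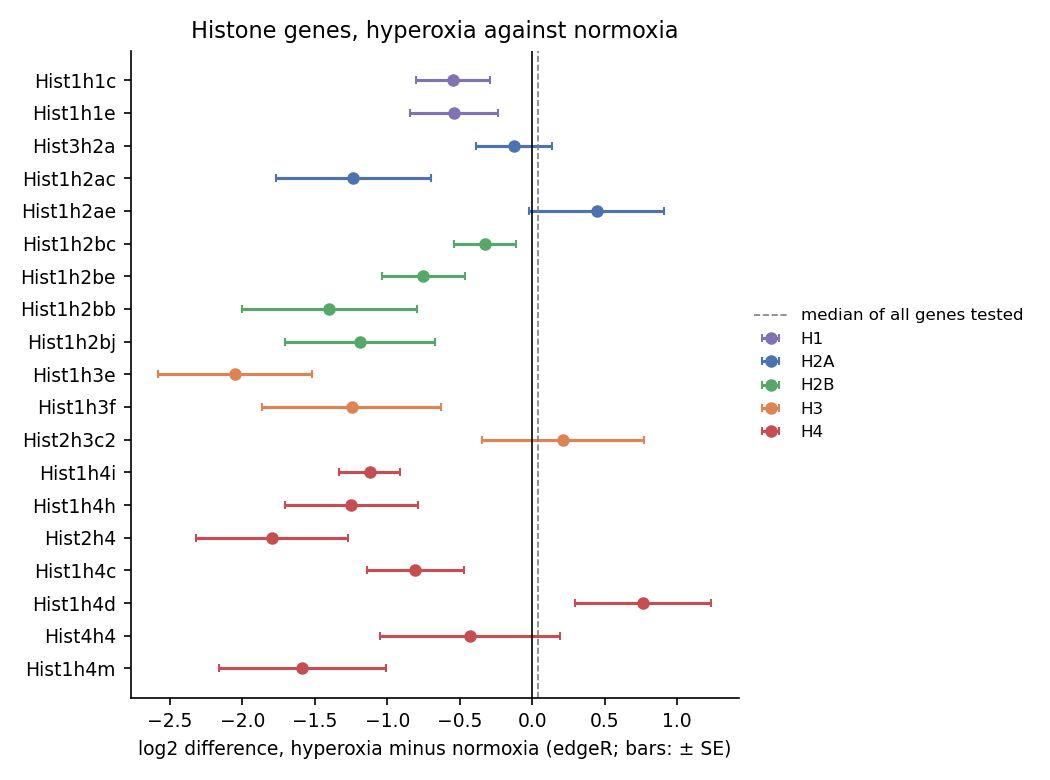
Log2 differences of hyperoxia minus normoxia from edgeR (points) with standard errors (bars) for the 19 histone genes tested, coloured by class. The dashed line is the median of all genes tested, 0.04, and 16 of the 19 points lie below 0.

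Summed counts of a class include every member, tested or not, and are given as CPM of the library total without TMM scaling. All 64 genes together made 267.8, 315.2 and 264.7 CPM in normoxia and 154.9, 246.1 and 192.0 in hyperoxia, a log2 difference of -0.54, taken between the means of log2 values, as for each class. The groups did not overlap, though this sum is mainly that of Hist1h1c and Hist1h2bc. In these sorted populations, fewer cells of a type and less RNA per cell cannot be told apart. H4 genes made 19.8, 27.4 and 22.1 CPM in normoxia, a mean of 23.1 ± 3.89 (SD, n = 3), and 9.78, 11.2 and 13.5 in hyperoxia, a mean of 11.5 ± 1.89 (SD, n = 3), a log2 difference of -1.01. H3 genes made 2.27, 2.97 and 1.91 CPM in normoxia and 1.49, 0.729 and 1.32 in hyperoxia, a log2 difference of -1.06. Both of these classes and the H2B genes (log2 difference -0.42) did not overlap between groups, whereas the H1 genes (-0.59) and the H2A genes (-0.19) did. Left without Hist1h1c and Hist1h2bc, a choice made after seeing the data, the other 62 genes made 49.8, 57.7 and 54.3 CPM in normoxia and 30.9, 29.6 and 35.9 in hyperoxia, a log2 difference of -0.75. The 7 genes taken as known for polyadenylated transcripts were Hist1h1c, Hist1h2bc, Hist2h2be, Hist2h2aa1, Hist2h2aa2, Hist3h2a and Hist4h4. Without them, the other 57 made 39.7, 49.0 and 45.1 CPM in normoxia and 22.1, 20.3 and 28.9 CPM in hyperoxia, a log2 difference of -0.92. The 57 are not all genes that end at the stem-loop. Annotated transcripts of Hist1h2be and Hist1h4i, for example, run 1861 and 330 bases past it.

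**Figure D4:**
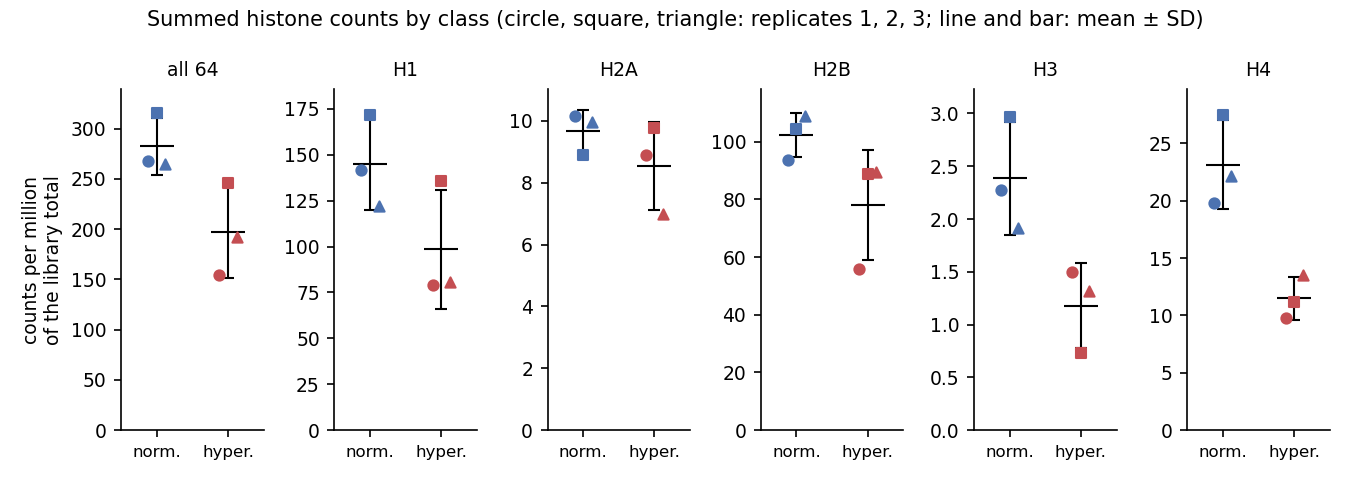
Summed CPM of the library total for all 64 histone genes and for each class, with 1 symbol per library (circle, square and triangle for replicates 1, 2 and 3), the mean as a line and the SD as a bar, n = 3 per group. The H3 and H4 panels show means in hyperoxia of 1.18 and 11.5 against 2.38 and 23.1 in normoxia, without overlap.

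Genes of histone mRNA processing were taken from a list of 31, of which 30 were tested. The list also holds genes of transcription and of the cell cycle, such as Npat, Hinfp, Cdk2, Ccne1 and Ccne2. None passed the edgeR adjusted threshold, 22 were below 0, the median log2 difference was -0.16, and 8 were lower and 2 higher without overlap, where 10.3% and 9.56% of all genes tested were. Zfp473, a zinc finger protein of the histone pre-mRNA processing complex, stood at 4.00, 4.39 and 4.11 CPM in normoxia and 2.53, 1.49 and 1.89 CPM in hyperoxia. The groups did not overlap, and its log2 difference of -1.08 ± 0.30 had an adjusted p of 0.193 in edgeR and 0.0400 in DESeq2. Npat, the coactivator of histone gene transcription, stood at 1.78, 1.93 and 1.70 CPM in normoxia and 1.06, 0.642 and 1.14 CPM in hyperoxia, also without overlap (log2 difference -0.93 ± 0.36, edgeR adjusted p = 0.338). Tent4a, a terminal nucleotidyltransferase, had a log2 difference of -0.84 ± 0.30 without overlap (edgeR adjusted p = 0.300). Slbp, which binds the stem-loop, overlapped between groups, at 83.5, 107.1 and 106.4 CPM in normoxia and 71.1, 65.5 and 104.7 CPM in hyperoxia (log2 difference -0.30 ± 0.24, edgeR adjusted p = 0.643).

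Histone variants, most of which are made outside S phase from polyadenylated transcripts, centred near 0, with 5 of 10 tested below 0 and a median of 0.04. H3f3b, a gene for the replacement histone H3.3, had a mean of 2123 CPM in normoxia and 1826 CPM in hyperoxia (log2 difference -0.22 ± 0.23). H3f3a, which encodes the same protein, H2afz and H2afx overlapped too, with log2 differences of 0.10 ± 0.21, 0.23 ± 0.27 and -0.28 ± 0.27. Of the 10 variants tested, only H2afj was without overlap, where 10.3% of all genes tested were lower and 9.56% higher without overlap. It stood at 97.1, 101.9 and 102.1 CPM in normoxia and 46.4, 79.1 and 73.1 CPM in hyperoxia (log2 difference -0.60 ± 0.24, edgeR adjusted p = 0.348). H2afy and H2afy2, genes for macroH2A histones, overlapped, with log2 differences of 0.48 ± 0.30 and 0.79 ± 0.60. The 20 histone chaperone genes, which carry histones to and from DNA, had a median of 0.15, with 5 below 0 and none without overlap, beside the same 10.3% and 9.56% of all genes. Those with the lowest p were Ssrp1 and Supt16, which form the FACT complex, at 0.45 ± 0.26 and 0.37 ± 0.22, and Asf1b, a carrier of H3 and H4, at 0.86 ± 0.54.

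Genes of DNA replication and of cell division lay mostly above 0. Of 34 S phase genes tested, 6 were below 0, with a median log2 difference of 0.48, and of 21 genes of G2 and mitosis, 1 was below 0, with a median of 0.90. None passed in edgeR. At an unadjusted edgeR p under 0.05, 6 S phase genes and 2 genes of G2 and mitosis were higher and none lower, where 9.10% of all genes were higher and 3.91% lower. DESeq2 called 1 of the 34 S phase genes higher, where it called 3.57% of all genes higher. That gene was Mcm5, a subunit of the replicative helicase, at 1.83, 1.55 and 2.03 CPM in normoxia and 4.20, 2.79 and 8.92 CPM in hyperoxia (log2 difference 1.56 ± 0.44, adjusted p of 0.208 in edgeR and 0.0199 in DESeq2). Rrm2, a subunit of ribonucleotide reductase, was higher without overlap, with a log2 difference of 1.09 ± 0.41. Pcna, the sliding clamp of DNA polymerase, overlapped between groups, with a log2 difference of -0.34 ± 0.38. Mki67, a marker of cycling cells, was between 1.54 and 1.77 CPM in 5 libraries and at 6.73 CPM in hyperoxia replicate 3. That library was the lowest of all 6 for 3 of the 19 histone genes, Hist1h1c, Hist3h2a and Hist1h4c, and the highest of the 6 for 0. Among the hyperoxia libraries, however, it had the highest class sums, as CPM of the library total, for H4 genes (13.5 against 9.78 and 11.2) and H2B genes (89.4 against 55.9 and 88.6). Its H2A sum (6.99) was the lowest of that group, and its H1 and H3 sums were neither highest nor lowest. The lists are not separate, since the S phase list shares Slbp, Ccne1 and Ccne2 with the processing list and Mcm2 with the chaperone list. No test of the difference between the histone genes and these lists was made.

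**Figure D5:**
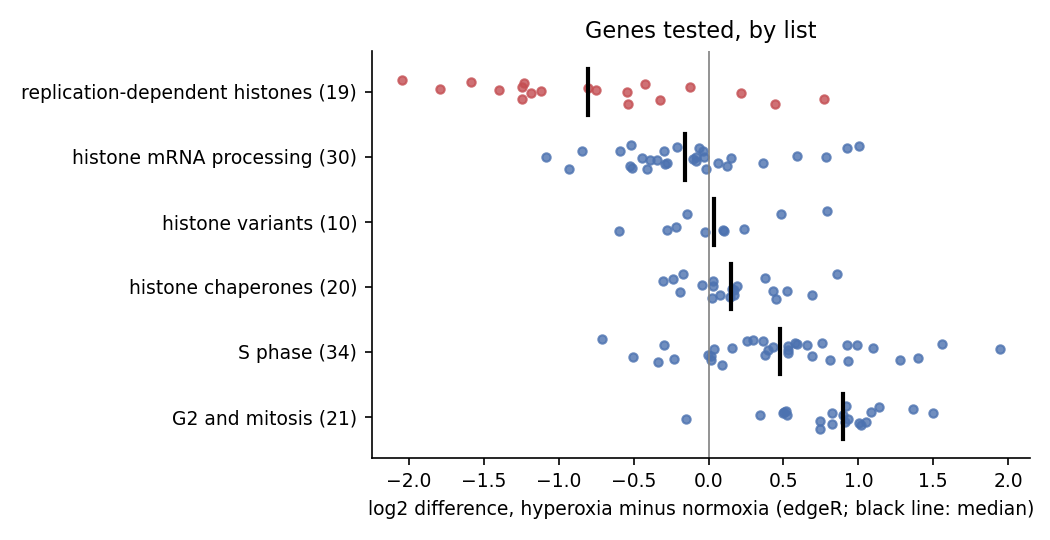
Log2 differences of hyperoxia minus normoxia for each gene tested (points) in 6 lists, with the number tested in brackets and the median as a black line. The medians run from -0.81 for the histone genes to 0.90 for genes of G2 and mitosis. Slbp, Ccne1, Ccne2 and Mcm2 are drawn in the S phase list and again in another list.

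Markers of other cells differed between the same libraries, although none of their genes passed the edgeR adjusted threshold. DESeq2 called 8 of 14 macrophage, 6 of 10 class II and dendritic cell, 7 of 9 endothelial and 7 of 10 stromal genes tested higher, where it called 3.57% of all genes higher. Genes of macrophages, 14 in all, summed to 1493 to 1632 CPM in normoxia and 2059 to 3100 CPM in hyperoxia, with 13 of 14 above 0 and 9 higher without overlap, where 9.56% of all genes tested were. Class II and dendritic cell genes summed to 475.1 to 514 CPM in normoxia and 700.1 to 2099 CPM in hyperoxia, with 7 of 10 higher without overlap, and endothelial genes to 8.99 to 15.2 and 28.5 to 74.5 CPM, with 8 of 9. Stromal genes summed to 21.2 to 60.9 CPM in normoxia and 40.7 to 255.4 CPM in hyperoxia. Epithelial genes overlapped, at 80.7 to 184.8 CPM and 11.9 to 235.5 CPM, as did erythroid genes, at 58.1 to 728.9 CPM and 116.4 to 811.6 CPM. T and NK cell genes summed to at most 29.3 CPM and B cell genes to at most 53.8 CPM. Neutrophil genes summed to 48220 to 67710 CPM in normoxia and 50030 to 115000 CPM in hyperoxia. The part of these differences in the histone counts was not tested. Hyperoxia replicate 2, with the high precursor genes, was the lowest of all 6 libraries for 9 of the 19 histone genes. Without it the median log2 difference was -0.79, over 21 histone genes tested rather than the same 19. Single genes moved more than this median. Hist1h2ac (-0.84), Hist1h3f (-0.75), Hist2h4 (-1.43), Hist1h2be, Hist1h2bb, Hist1h3e and Hist1h4h then had smaller differences. Hist1h1c (-0.79), Hist1h1e, Hist1h2bc and Hist3h2a had larger ones, also negative.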

How the data were processed

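Libraries of RNA from sorted uterine neutrophils were prepared by Ovation/NexteraXT chemistry (per the labels). The authors deposited raw counts per gene, whole numbers with no normalization, in 1 table for each of 6 libraries. STAR 2.4.2a, DESeq2 1.16.1 and GRCm38 are named in the submitters' processing notes; the annotation release, read length, counter and its strand setting are not given in the sources used here, so reads of overlapping genes may be mixed and reads matching several histone copies may have been dropped. Of 43432 gene IDs, 42548 matched GENCODE M21, which gave symbols, coordinates and transcripts; the other 884 kept their IDs.

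The conditional allele that all mice carried is not reported here. Groups were taken from the housing condition, and replicate numbers follow the order of deposition. The 12908 genes kept by filterByExpr (of 23147 with a count) were scaled by TMM and tested with edgeR 4.0.16 in R 4.3.3 (robust quasi-likelihood, two-sided, Benjamini-Hochberg over all genes). DESeq2 1.42.0 and limma-voom (limma 3.58.1), other scaling, no filter, a threshold of 0.1 and leaving out each library were alternatives. On simulated data, 7.33% of genes changed 2-fold and 62.3% changed 4-fold were recovered by edgeR, and 24% and 78% by DESeq2; 17 of 226 edgeR calls and 90 of 396 DESeq2 calls were false. The biological coefficient of variation was 36.3%. Floors cover counting error only.

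Genes named were, in each class, the 3 with the highest mean CPM and the 2 with the lowest edgeR p, any past a threshold in edgeR or DESeq2, and Hist1h4i; in the lists of histone processing, variants and chaperones, the 3 with the lowest p, and Slbp, Npat, H2afx, H3f3a, H3f3b, H2afz, Mki67, Pcna, Mcm5 and Rrm2. Other genes are named for a property of their sequence or as an exception, after their values were seen. The members and lists were chosen with earlier results of these data known.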

Additional observations from a re-analysis of the deposited data

How the results depend on the processing

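The number of histone genes called lower at the adjusted threshold of 0.05 was 0 with edgeR, 3 with DESeq2, and 1 (Hist1h4i) with no low-count filter, where 53 histone genes were tested; it ranged from 0 to 1 on leaving out a library, the 1 being Hist2h4 without hyperoxia replicate 1. No setting called a histone gene higher. The median log2 difference was -0.81, -0.46 with no filter, and -0.93 to -0.76 on leaving out a library, where 20 to 22 histone genes were tested. The log2 difference of the summed counts was -0.54, -0.92 without 7 genes known for polyadenylated transcripts, -0.75 without Hist1h1c and Hist1h2bc, and -0.71 to -0.37 on leaving out a library. On leaving out a library, Hist1h4i had edgeR adjusted p-values of 0.0689 to 0.542, Hist1h3e 0.118 to 0.606 and Hist2h4 0.0417 to 0.606. The sign changed for Hist3h2a, which ranged from -0.24 to 0.074 (0.056 without normoxia replicate 1, 0.074 without hyperoxia replicate 3), and for Hist2h3c2, from -0.14 (without hyperoxia replicate 1) to 0.44; the cause was not tested. No paired analysis was possible because the labels give no replicate numbers shared between groups. The 45 histone genes with too few counts were not tested, and the part of depth and of shared sequence in this was not tested.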

Other observations

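Histone genes known mainly from the testis were at or near 0: Hist1h1t had 10 counts over the 6 libraries, Hist1h2aa 2 and Hist1h2ba 1. The pseudogenes of the clusters, which were not among the 64 genes, were as low, with 4 counts for Hist1h2aj, 13 for Hist1h2al and 1 for Hist3h2bb-ps. In the divergent H2A and H2B pairs other than Hist1h2ac and Hist1h2bc, neither gene had more than 144 counts over the 6 libraries, the count of Hist1h2ae.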
